A study of Mus musculus with 24 samples.

Results

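Male mouse blastocysts sired by an obese father were compared with male blastocysts of lean parents, over all genes named on the array. The comparison used 8 of the 24 arrays of the series, chosen by their labels alone: 4 arrays of male embryos with an obese father (pools 9 to 12) and 4 of male embryos with lean parents (pools 1 to 4). A blastocyst is the stage just before implantation, with an outer trophectoderm around an inner cell mass. The animals were NMRI mice, an outbred stock. Obese fathers had been fed a high-fat diet (HFD), a modified form of the D12492 diet rich in calories, from 3 weeks of age on, for 9 weeks, and lean animals a control diet (CD) for the same time. Mating took place at 12 weeks of age, with all animals on CD during mating, and blastocysts were collected on day 3.5. The mothers of both groups were lean, so the groups differed in the father's diet. Each array held the pooled lysate of 3 male embryos from 1 mother. The labels name cohorts of 7 HFD and 14 CD animals but not the parents of each pool, so pools may share a mother or a father. P-values here measure the spread between pools, not between fathers.

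All levels are log2 signals as deposited, on a table whose median over all probe sets and arrays was 2.56. A difference is the obese-father mean minus the lean-parent mean on that scale, with its standard error (SE) from a linear model over all 24 arrays. Of 19938 named genes, 13311 were above the table's median on at least 4 arrays and were tested. A gene was called at a Benjamini-Hochberg adjusted p under 0.05 in limma, a tool that fits a linear model to each gene and shares information on the spread between genes. Over the 8 arrays the trophectoderm keratin genes Krt8 and Krt18 lay between 6.13 and 8.48 and between 4.52 and 7.91, and the inner cell mass factor Pou5f1 between 2.65 and 8.29. Of the defining blood markers, Ptprc, Hba-a1, Hbb-b1 and Cd68 were too dim to be tested, as were the granulosa markers Fshr and Cyp19a1. Amh, another granulosa marker, was at 4.28 in lean-parent and 3.76 in obese-father males, and the sperm marker Prm1 at 4.08 and 3.95.

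Ribosomes, the machines that make protein, are built in the nucleolus from ribosomal RNA and ribosomal proteins. Small nucleolar RNAs (snoRNAs) guide chemical modification of the ribosomal RNA, and in mammals most are cut from introns of longer host transcripts. MicroRNAs are short RNAs that pair with messenger RNAs, mainly through their seed, and lower their output. The blastocyst makes new ribosomes and uses mitochondrial respiration as its cells divide and the trophectoderm pumps fluid into the cavity.

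The arrays themselves differed in how widely their values were spread, which touches every result below. The SD of all log2 values on an array was 1.29, 1.42, 1.53 and 1.27 in lean-parent pools 1 to 4. It was 1.50, 1.52, 1.49 and 1.72 in obese-father pools 9 to 12. The obese-father arrays were wider on average, but lean-parent pool 3 was wider than 3 of them. The means were 1.56 ± 0.11 (SD, n = 4) and 1.38 ± 0.12 (SD, n = 4), a difference of 0.18 (two-sided exact permutation test, p = 0.114, where 0.0286 is the smallest p that 4 against 4 arrays can give). Leaving out single arrays gave differences of 0.13 to 0.23. The array means lay between 2.82 and 2.86 over the series. On an array of wider spread bright probe sets read higher and dim ones lower, so each comparison was made without and with the array SD as a covariate. The array SD moved with the groups, and its part in the differences between them was not tested.

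**Figure D1:**
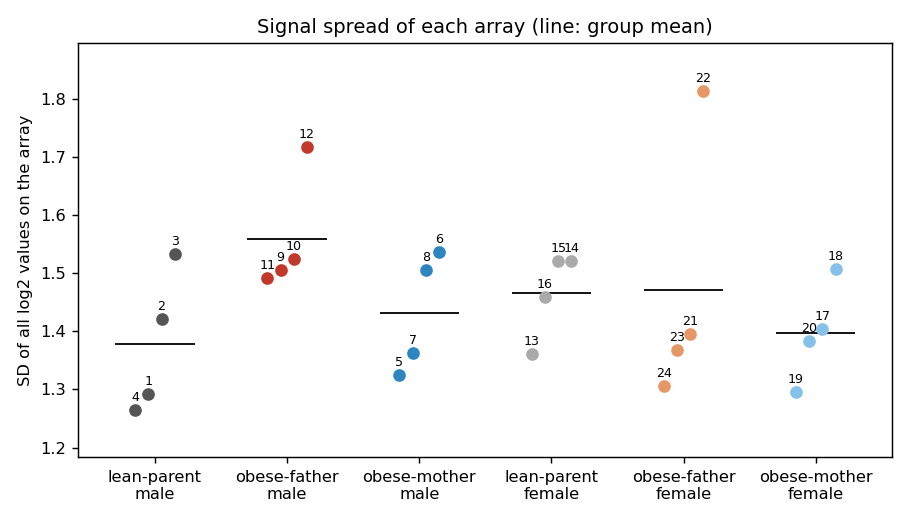
SD of all log2 values on each of the 24 arrays (vertical axis) by group (horizontal axis); points are arrays with their pool number and lines are group means. Obese-father males lie between 1.49 and 1.72 and lean-parent males between 1.27 and 1.53, with pool 3 among the obese-father arrays; the widest array of the series, obese-father female pool 22, is at 1.81.

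Across all tested genes, bright genes read higher and most other genes slightly lower in obese-father males. The median difference was -0.11, with quartiles of -0.26 and 0.09, and 4429 genes (33.3%) lay above 0. The median SE was 0.18. In limma 1 gene was called (0.00751% of those tested), and it was higher. At an unadjusted p under 0.05, 572 genes (4.3%) were higher and 1386 (10.4%) lower, so that 29.2% of these 1958 genes (14.7% of all) were higher. Centring each array on its median, which moved the median difference to -0.03, made that share 41.9%. In 254 genes (1.91%) all 4 obese-father arrays lay above all 4 lean-parent arrays, and in 883 genes (6.63%) all lay below. Differences over 1 log2 unit ran almost all one way, with 532 higher and 5 lower. The count of 1958 was 836 without pool 12, 974 without pool 4 and 1049 without pool 1.

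Once the array SD was in the model the medians lay near 0, but lower genes still outnumbered higher ones. Of the genes at an unadjusted p under 0.05, 34.7% were higher, against 29.2% without the covariate. The median difference was -0.02 with quartiles of -0.14 and 0.11, and 6203 genes (46.6%) lay above 0. Here 2 genes were called in limma (0.015%), 1 higher and 1 lower. At an unadjusted p under 0.05, 332 genes (2.49%) were higher and 624 (4.69%) lower, 956 in all (7.18%). After each array was adjusted for its SD, all 4 obese-father arrays lay above all 4 lean-parent arrays in 242 genes (1.82%) and below them in 482 (3.62%). Differences over 1 log2 unit now ran the other way, with 21 higher and 46 lower. The sign of the difference turned in 4942 genes (37.1%). Of the genes at an unadjusted p under 0.05 in each fit, 368 were in both with the same direction (121 higher, 247 lower), which is 18.8% of those without and 38.5% of those with the covariate.

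The differences as deposited followed signal level. Genes were put in 10 equal groups by their mean signal over the 24 arrays, which depends on the probes as well as on the transcript. In the 9 dimmer groups the median difference was -0.10 to -0.14. In the brightest group, with levels of 4.30 to 11.86, it was 0.30 with quartiles of -0.19 and 1.10, and this group held 278 of the 572 genes that were higher at an unadjusted p under 0.05. The medians of the 10 groups were between -0.03 and 0.01 with the array SD as covariate. The chromosomes had similar medians: the autosomes had medians of -0.08 to -0.14 and the X chromosome, with 366 genes, -0.12. The 2 tested genes of the mitochondrial genome had 1.13, and 0.43 with the array SD.

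**Figure D2:**
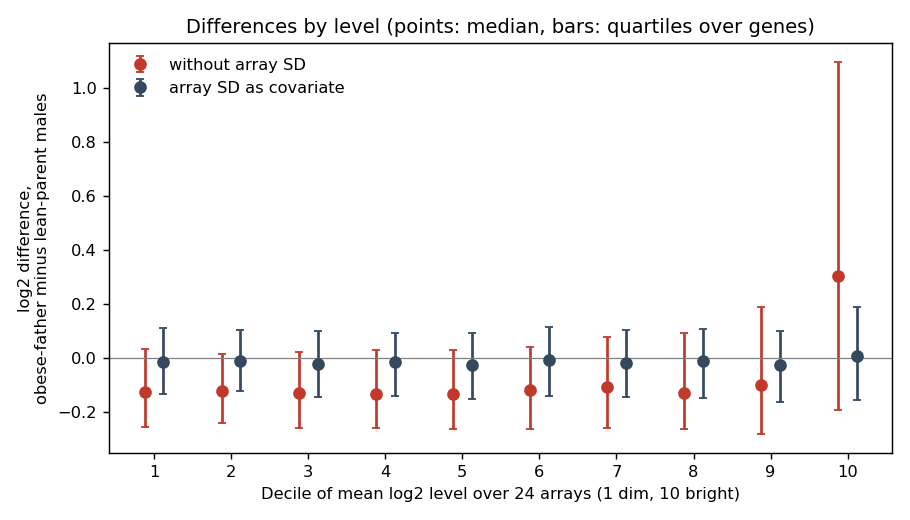
Median log2 difference, obese-father minus lean-parent males (vertical axis; bars are quartiles over genes), in 10 groups of tested genes by mean log2 level (horizontal axis, dim to bright), without (red) and with (dark blue) the array SD as covariate. Without it the brightest group has a median of 0.30 and the others lie at -0.10 to -0.14; with it all medians lie between -0.03 and 0.01.

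The gene called in both fits was Snord47 on chromosome 1, a box C/D snoRNA, of the class that guides 2'-O-methylation of ribosomal RNA. Its level was 1.07, 1.25, 2.09 and 1.71 in lean-parent pools 1 to 4. It was 4.09, 2.87, 3.48 and 4.74 in obese-father pools 9 to 12. All obese-father arrays lay above every lean-parent array. They also lay above each of the other 20 arrays of the series, whose highest value was 2.34. The means were 3.79 ± 0.81 and 1.53 ± 0.46 (SD, n = 4 each), and the difference of 2.26 (SE 0.32) had an adjusted p of 0.00767 in limma. The covariate made it 2.12 (SE 0.35, adjusted p = 0.0271). In lean-parent males the probe set was below the table's median on every array, and Snord47 entered the test through the obese-father males alone: no array outside that group was above the median. The call was lost with the 2 groups fitted alone (adjusted p = 0.311), with the male groups alone (0.162), without pool 1 (difference 2.11, adjusted p = 0.073) and without pool 9 (2.16, adjusted p = 0.0662).

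Against male embryos of obese mothers, Snord47 was also higher in obese-father males, by 2.08 (limma, adjusted p = 0.0279). With the array SD, limma called 0 genes in that comparison, and the smallest adjusted p was 0.0765. The obese-father arrays were the same as in the comparison with lean-parent males. In female embryos the Snord47 difference between obese-father and lean-parent pools was 0.22. The difference of the male and female effects was 2.04 (adjusted p = 0.654 over all genes), so a difference between the sexes was not shown. Snord47 lies in an intron of Gas5, a non-coding host transcript. Gas5 was at 7.61, 9.45, 9.96 and 7.0 in lean-parent pools and at 10.34, 10.12, 9.84 and 10.90 in obese-father pools. The Gas5 groups overlapped through pool 3, and the difference of 1.80 (SE 0.70, adjusted p = 0.316) was 0.57 with the array SD (adjusted p = 0.834).

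The gene called with the array SD alone was Glod4 on chromosome 11, which encodes a glyoxalase-domain protein. It was at 2.36, 3.22, 3.42 and 2.25 in lean-parent pools and at 2.15, 2.18, 1.72 and 3.18 in obese-father pools. The groups overlapped, since pool 12 reached the level of the brighter lean-parent pools. As deposited, the difference was -0.50 (SE 0.44, adjusted p = 0.543). At equal array SD it was -1.35 (SE 0.21, adjusted p = 0.0201). Glod4 was at 4.67 on the widest array of the series, obese-father female pool 22. Without that array the difference at equal SD was nearly the same, -1.30 (SE 0.23), but its adjusted p was 0.144, and without pools 12 and 22 it was -1.32 with an adjusted p of 0.0907. Snord47 also missed the threshold in the fit with the array SD there (adjusted p = 0.16 and 0.0907). In that fit Glod4 was also missed without pool 1, 2 or 11 (adjusted p = 0.0564, 0.0895 and 0.106). It was missed too with the 2 groups alone (-1.43, adjusted p = 0.167) and with the male groups alone (-1.28, adjusted p = 0.746). Snord47 was also missed there without pool 1, 2, 9 or 11 (0.0937, 0.0895, 0.153 and 0.106). With the 2 groups alone, the male groups alone and array weights, the adjusted p of Snord47 in that fit was 0.665, 0.746 and 0.0505.

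**Figure D3:**
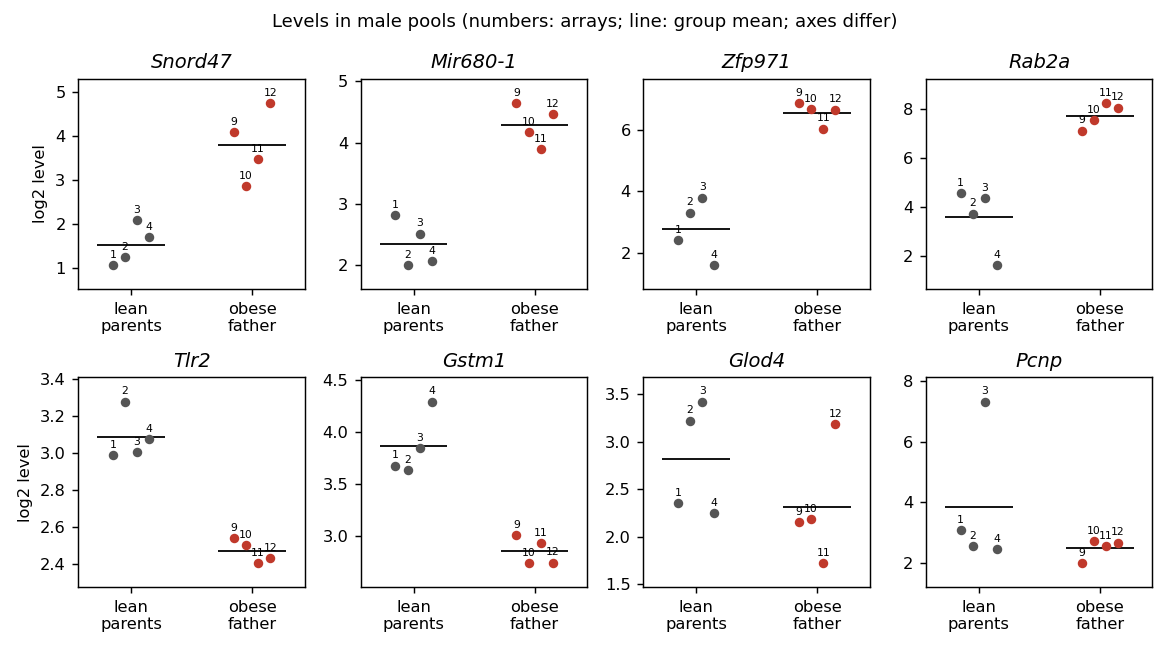
Log2 level (vertical axis, a scale of its own in each panel) of 8 genes in the 4 lean-parent and 4 obese-father male pools; points are arrays with their pool number and lines are group means. Snord47, Mir680-1, Zfp971 and Rab2a are higher in all obese-father pools, Tlr2 and Gstm1 lower in all, Glod4 overlaps, and in Pcnp lean-parent pool 3 stands alone at 7.33.

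Small nucleolar RNA genes as a class read higher in both fits. Of 51 such genes 21 were tested, and of these 1 had passed through the obese-father males alone and 7 had fewer than 4 other arrays above the median. Over all 51, without the filter, the median difference was 0.12 and 32 lay above 0, against a median of -0.13 and 29.0% over all 19938 genes. In the fit with the array SD the median over the 51 was 0.16 with 35 above 0, against -0.02 and 46.0%. Among the 21 tested, 4 were higher and 1 lower at an unadjusted p under 0.05 in each fit, against 4.3% and 10.4% of all tested genes without the covariate and 2.49% and 4.69% with it. The 4 higher were 2 without pool 2, 6 without pool 9 and 7 after median centring. Only Snord47 was called in limma.

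The other members of that group differed in how they varied among pools. Snord8 was at 2.32, 2.11, 1.77 and 2.0 in lean-parent and 2.92, 2.96, 2.40 and 3.02 in obese-father pools. These groups did not overlap, and the difference of 0.78 (SE 0.19, adjusted p = 0.316) was 0.78 with the array SD. Snora30 differed by 1.0 with 1 obese-father pool at 5.27 and the others at 2.29 to 3.12. Snora73a, from a class that guides pseudouridylation or ribosomal RNA cleavage, also differed by 1.0, and its groups overlapped as well. Snora30 and Snora73a were named after their values were seen. Snord33, a box C/D snoRNA from an intron of the ribosomal protein gene Rpl13a, went the other way. It was at 3.60, 3.91, 6.95 and 3.74 in lean-parent and 3.14, 3.33, 3.21 and 2.30 in obese-father pools, a difference of -1.55 (SE 0.48, adjusted p = 0.316) in which pool 3 stood far above the other lean-parent pools. Whether a probe set of this kind reports the small RNA or the longer transcript around it cannot be told apart.

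The host genes of snoRNAs read higher as deposited, and less so at equal array SD. Of 41 host genes listed, 26 were tested, with a median difference of 1.23 (0.12 with the array SD). At an unadjusted p under 0.05, 12 were higher and 1 lower, against 4.3% and 10.4% of all tested genes, none of them called. Without pools 1, 4 or 12 in turn that count of higher genes was 2 each time. With the array SD 1 was higher and 0 lower, against 2.49% and 4.69% of all tested genes. After scaling to a common SD the median was 0.80, with 11 higher and 2 lower, against 509 and 1759 of 13311 genes. After quantile normalization it was 0.64, with 10 higher and 2 lower, against 606 and 1423. In the brightest of the 10 groups by level, 278 of 1331 genes were higher and 122 lower as deposited. Snhg5, a non-coding host gene, differed by 1.10 (SE 0.37, adjusted p = 0.316) and by 0.49 with the array SD.

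The microRNA gene with the smallest p was Mir680-1, and the 3 genes that carry miR-680 read higher in obese-father males. Their sequences are shown because they share the mature microRNA while lying on 3 chromosomes. The sequences are RefSeq's, on build GRCm38.p6, and the capitals in the mature sequence mark the seed, bases 2 to 8.
miR-680: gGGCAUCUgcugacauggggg
In the hairpins below, capitals mark the mature part. They lie at chr6:129691535-129691643 (plus strand), chrX:144297790-144297899 (plus strand) and chr12:35194811-35194897 (minus strand).
Mir680-1: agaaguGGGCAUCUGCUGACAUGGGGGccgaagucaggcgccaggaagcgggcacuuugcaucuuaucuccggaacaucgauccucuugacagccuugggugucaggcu
Mir680-2: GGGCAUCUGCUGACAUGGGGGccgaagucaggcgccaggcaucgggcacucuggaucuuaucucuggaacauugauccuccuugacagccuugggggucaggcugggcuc
Mir680-3: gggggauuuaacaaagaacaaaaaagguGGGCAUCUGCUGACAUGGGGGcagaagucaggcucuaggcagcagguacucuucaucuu
The longest identical run was 39 bases between Mir680-1 and Mir680-2, 24 between Mir680-1 and Mir680-3 and 22 between Mir680-2 and Mir680-3. Probes for one gene may therefore read another, and the 3 values are not independent.

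Mir680-1 was at 2.82, 2.01, 2.52 and 2.07 in lean-parent and 4.64, 4.17, 3.90 and 4.46 in obese-father pools. The groups were more than 1 log2 unit apart. The difference was 1.94 (SE 0.38, adjusted p = 0.198), and 1.98 with the array SD (adjusted p = 0.204). Mir680-3 was at 2.33, 1.81, 2.08 and 2.42 against 3.98, 3.55, 2.80 and 3.70. These groups did not overlap either, with a difference of 1.35 (adjusted p = 0.316) that was 0.77 with the array SD. Mir680-2 was at 4.19, 4.83, 3.72 and 4.48 against 6.15, 4.77, 5.01 and 7.08, and pool 2 lay above pool 10. Its difference was 1.45 (adjusted p = 0.316). In female embryos the differences of Mir680-1, Mir680-2 and Mir680-3 were -0.77, -1.15 and -0.35, and a lean-parent female pool reached 4.74 for Mir680-1. Mir680-2 and Mir680-3 were named after their values were seen.

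Mir383 was the other microRNA gene among those with the smallest p at equal array SD. It was at 3.07, 3.04, 3.04 and 3.22 in lean-parent and 4.78, 4.24, 3.83 and 5.17 in obese-father pools, a difference of 1.41 (SE 0.31, adjusted p = 0.316) that was 1.17 with the array SD. For microRNA genes as a class the balance depended on the array SD and on how it was taken into account. Over all 300 the median difference was -0.10 with 102 above 0, and with the array SD 0.05 with 179 above 0. At an unadjusted p under 0.05, 16 of the 123 tested were higher and 12 lower, against 4.3% and 10.4% of all tested genes. The fit with the array SD had 16 higher and 1 lower, against 2.49% and 4.69%, and 81 of the 123 above 0. Scaling to a common SD went the other way, with 42 of the 123 above 0. There 13 were higher and 23 lower, against 509 and 1759 of 13311 genes. Quantile normalization gave 48 above 0, with 13 higher and 26 lower, against 606 and 1423. None was called in either fit. The 12 that were lower as deposited were 1 without pool 12, 5 without pool 4 and 22 without pool 22.

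Large differences without overlap were mostly of bright protein-coding genes, and most shrank with the array SD. The largest was in Rab2a, a small GTPase of transport between endoplasmic reticulum and Golgi. It was at 4.57, 3.73, 4.37 and 1.65 in lean-parent and 7.12, 7.54, 8.25 and 8.06 in obese-father pools. The difference was 4.16 (SE 1.20, adjusted p = 0.316), or 2.60 with the array SD (adjusted p = 0.598). A second probe set of Rab2a gave 1.31. Zfp971, a zinc finger gene, was at 2.42, 3.31, 3.79 and 1.62 against 6.85, 6.67, 6.03 and 6.64. Its 4 obese-father pools lay within 1 log2 unit of each other. The difference was 3.76 (SE 0.90, adjusted p = 0.316), and at equal array SD it was 2.21 (SE 0.59, adjusted p = 0.41).

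The other higher genes of this kind had differences of 2.04 to 2.60 as deposited and of 0.71 to 1.21 with the array SD, all with an adjusted p of 0.316 or 0.317 without the covariate. Fabp3, which binds fatty acids in the cytosol, differed by 2.60 (SE 0.87) as deposited and by 1.05 with the array SD. Malat1, a nuclear non-coding RNA, differed by 2.58 (SE 1.10). Its lean-parent pools ranged from 2.51 to 7.84 and its obese-father pools from 7.87 to 8.94. Tspan8, a tetraspanin of the trophectoderm list, differed by 2.41, Anapc13, a subunit of the anaphase-promoting complex, by 2.40 and Celf1, an RNA-binding splicing regulator, by 2.39. A second set of Celf1 gave 0.25. Rbm25, a splicing factor, Anp32a, a nuclear phosphoprotein, and Psap, the precursor of lysosomal saposins, differed by 2.32, 2.13 and 2.04. The lowest of the 4 sets of Rbm25 gave 0.20.

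Genes that were lower without overlap were dimmer, and their differences were smaller. Tlr2, a receptor for bacterial lipoproteins, was at 2.54, 2.50, 2.40 and 2.43 in obese-father pools, against 2.99, 3.28, 3.0 and 3.07 in lean-parent pools, and both groups were tight. The difference was -0.62 (SE 0.11, adjusted p = 0.113), and -0.54 with the array SD (adjusted p = 0.204). Tlr2 passed the threshold with array weights (adjusted p = 0.0338) and without pool 22 (0.0444). Its level was near the table's median of 2.56. Gstm1, a glutathione transferase, was at 3.67, 3.63, 3.84 and 4.29 against 3.01, 2.74, 2.93 and 2.74, a difference of -1.0 (SE 0.28, adjusted p = 0.316) that was -0.64 with the array SD. Vmn1r58, a vomeronasal receptor, differed by -1.14 (SE 0.28) and by -0.72 with the array SD.

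The remaining 9 lower genes chosen by size had differences of -0.89 to -0.74 and adjusted p of 0.316. Among them were Mitf, a transcription factor of pigment cells (-0.82, and -0.11 in its second set), Lilr4b, a leukocyte receptor (-0.84), Ndst4, an enzyme of heparan sulfate synthesis (-0.77), and Swsap1, a factor of homologous recombination (-0.75). Zfp947 and Zfp658 are zinc finger genes (-0.89 and -0.74), Klk1b24 is a kallikrein (-0.76), Kcnj14 a potassium channel (-0.81) and Ubqln5 a ubiquilin (-0.74). With the array SD these 9 lay between -0.63 and -0.21. Ubqln5 was called without pool 3, which was at 2.42 against 3.20 to 3.32 in the other lean-parent pools (adjusted p = 0.00962).

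At equal array SD other genes led, and none but Snord47 and Glod4 was called. Among the higher ones, Sdhaf1, an assembly factor of succinate dehydrogenase, was at 2.50, 2.97, 2.73 and 2.89 against 3.40, 3.05, 4.36 and 3.41. Its groups did not overlap, and the difference was 0.78 as deposited and 0.79 with the array SD (SE 0.20, adjusted p = 0.343). Tuba8, an alpha tubulin, Mettl23, a methyltransferase, Ttll3, a tubulin-modifying enzyme, and Cavin3, a caveolar protein, were higher by 0.60, 0.65, 0.44 and 0.43 at equal SD. Without the covariate Cavin3 differed by 0.06. Among the lower ones, Tmem183a, a membrane protein, differed by -1.08 (adjusted p = 0.0669) and Ociad1 by -1.74 (adjusted p = 0.0976), with -0.65 and -0.24 without the covariate.

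Some of these values rest on a few arrays. Pcnp, a nuclear protein, was at 3.08, 2.56, 7.33 and 2.46 in lean-parent and 1.99, 2.72, 2.56 and 2.67 in obese-father pools, and its difference at equal SD of -3.46 (adjusted p = 0.204) came with pool 3 far above the rest. As deposited Pcnp differed by -1.37, and its second set by -0.17. Phf10, a subunit of a chromatin remodelling complex, did not overlap: 2.46, 2.60, 3.21 and 2.95 against 2.05, 2.15, 2.11 and 1.98. Its difference was -0.73 as deposited and -1.05 at equal SD. Nlrp4c, of an oocyte-expressed family, was lower in every obese-father pool too (-0.57, and -0.90 at equal SD). For Ppp4c, a phosphatase, the values were -0.40 and -0.80, for Ppig, a nuclear cyclophilin, -0.03 and -1.0. For Cct5, a chaperonin subunit, the sign turned, from 0.59 to -0.73.

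Cytosolic ribosomal protein genes read higher in obese-father males, and far less at equal array SD. As deposited their median was above that of any other list described here. The lists were drawn up with earlier results of these data known and are described by counts and medians. All 56 of the 81 listed genes that the array names were tested, and all 56 lay above 0 with a median of 1.36, against 33.3% and -0.11 over all tested genes. At an unadjusted p under 0.05, 42 of 56 were higher, against 4.3% of all genes, and 6 did not overlap between groups, against 1.91%. None was called. In the brightest of the 10 groups by level, 278 of 1331 genes were higher and 77 were higher without overlap. Small and large subunit proteins had similar values, with medians of 1.42 over 23 and 1.35 over 33 genes. With the array SD the median was 0.29 and 49 of 56 lay above 0, against 46.6% of all tested genes. At an unadjusted p under 0.05, 1 was then higher, against 2.49%.

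The ribosomal protein genes tracked the array SD pool by pool. Their mean level was 5.73, 7.20, 7.72 and 5.32 in lean-parent pools 1 to 4 and 7.41, 7.68, 7.63 and 8.66 in obese-father pools 9 to 12. Pools 1 and 4, the narrowest arrays, were lowest, pool 12, the widest, was highest, and pool 3 lay among the obese-father pools. The count of 42 was 7 without pool 1, 3 without pool 4 and 6 without pool 12, and 22 without pools 12 and 22. The median stayed above 0 under every scaling tried, at 0.68 after quantile normalization and 0.83 after scaling to a common SD. In female embryos the median of the list was -0.22.

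**Figure D4:**
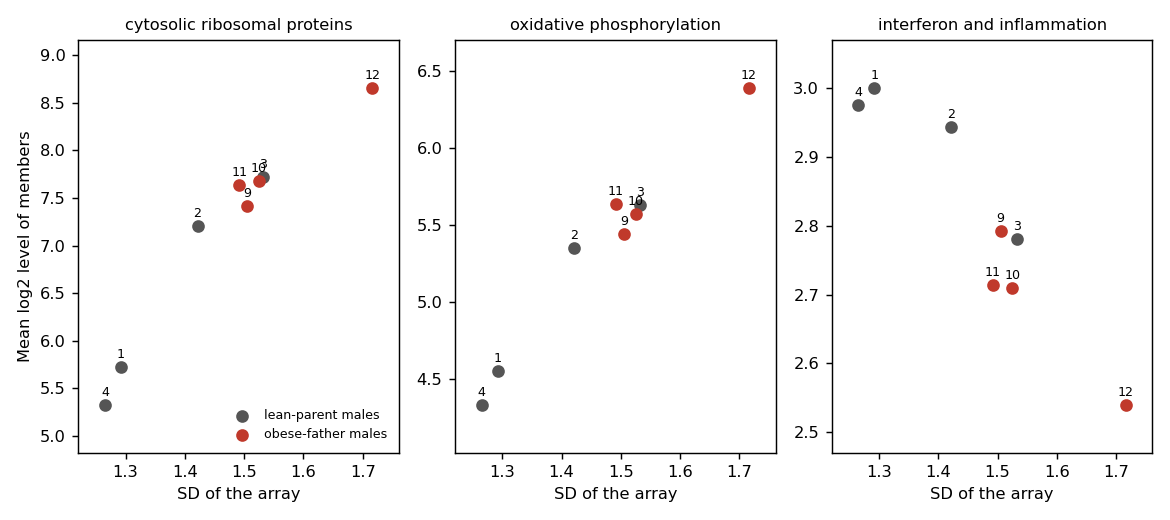
Mean log2 level of the tested members of 3 gene lists (vertical axis, a scale of its own in each panel) against the SD of the array (horizontal axis) in the 8 male pools; points are arrays with their pool number. Ribosomal protein and oxidative phosphorylation genes are lowest in pools 1 and 4 and highest in pool 12, the interferon and inflammation list runs the other way, and lean-parent pool 3 lies beside obese-father pools 9 to 11.

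Many ribosomal protein messenger RNAs begin with a terminal oligopyrimidine motif, a C followed by a run of C and T, through which growth signalling controls their translation. The start windows of the named members are shown to tell those with such a start from those without. They are RefSeq's (GRCm38.p6), with 15 bases before the annotated start in lower case and 15 from the start in capitals, at chr17:27635230-27635259 (minus strand), chr12:28635939-28635968 (minus), chr10:80292416-80292445 (plus) and chr2:26910792-26910821 (plus).
Rps10: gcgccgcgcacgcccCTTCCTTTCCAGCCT
Rps7: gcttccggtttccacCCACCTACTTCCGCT
Rps15: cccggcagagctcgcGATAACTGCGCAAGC
Rpl7a: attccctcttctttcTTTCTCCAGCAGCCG
Read from the first capital on the gene's strand, a C followed by 4 bases that are each C or T was at the start of 10 of the 45 ribosomal protein genes with a window (22.2%) and of 317 of all 10507 tested genes with one (3.02%). The median difference was 1.49 in the 10 and 1.36 in the other 35. The covariate made these 0.28 and 0.32. The start in RefSeq need not be the one used in blastocysts.

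The 4 named members had these values. Rps7 was at 6.16, 7.93, 8.22 and 5.27 in lean-parent and 8.48, 8.37, 8.55 and 9.55 in obese-father pools, a difference of 1.84 (SE 0.68, adjusted p = 0.316) that was 0.52 with the array SD. Rps10 differed by 1.47 (0.57 with the array SD) and Rpl7a by 1.29 (0.47), neither with overlap. Rps15 differed by 1.69 (0.45), with overlap through pool 3. The sets of a gene agreed in sign here, and the lowest for Rpl7a gave 0.39.

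Other genes of protein synthesis and turnover also read higher as deposited. Translation factors had a median of 1.23, with 28 of 29 above 0 and 9 higher at an unadjusted p under 0.05. Proteasome subunits had one of 1.05, with 31 of 31 above 0 and 6 higher, against 4.3% of all tested genes. In the brightest of the 10 groups by level 278 of 1331 genes were higher, a share close to that of the proteasome list. At equal array SD the medians of both lists lay near 0, at -0.05 and -0.13. Translation factors then had 2 higher and 1 lower, and proteasome genes 0 and 2, against 2.49% and 4.69% of all tested genes. After scaling to a common SD the medians were 0.90 and 0.83, with 9 and 7 higher, against 509 of 13311 genes. After quantile normalization they were 0.82 and 0.83, with 9 and 8 higher, against 606. No proteasome gene was free of overlap. The counts of 9 and 6 were 4 and 0 without pool 1, 2 and 0 without pool 4, 4 and 0 without pool 12, 17 and 18 without pool 3 and 21 and 14 without pool 22. Eif1ax, which helps to select the start codon, differed by 2.22 (SE 0.73, adjusted p = 0.316), and Eif4e, the cap-binding protein, by 1.27 without overlap, though another of its sets gave -0.15. Eif3c and Eif3a, subunits of initiation factor eIF3, differed by 1.65 and 1.72. The proteasome core subunits Psma2, Psma3 and Psmb5 and the cap ATPase Psmc2 differed by 1.68, 2.09, 1.36 and 1.05. Ribosome biogenesis genes had a median of 0.46 (0.13 without pool 12). Of 31, 6 were higher (0 without pool 12, 1 without pool 4 and 2 without pool 1) and 1 lower, against 4.3% and 10.4% of all tested genes. At equal SD their median was -0.07, with 0 higher and 3 lower, against 2.49% and 4.69%. As deposited, Gar1 of this list, of the H/ACA snoRNA particle, differed by 1.02 and Polr1e, of RNA polymerase I, by -0.42. The 8 tested genes of the cytosolic chaperonin had a median of 1.23, and one of -0.25 at equal SD.

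Mitochondrial energy genes were the next group. Of 73 genes of oxidative phosphorylation 67 lay above 0 with a median of 0.81. Of them 26 were higher and 0 lower at an unadjusted p under 0.05, against 4.3% and 10.4% of all tested genes, and 9 were higher without overlap, against 1.91%. In the brightest of the 10 groups by level, 278 of 1331 genes were higher, 122 lower and 77 higher without overlap. Once the array SD was included the median of the list was 0.06 with 44 above 0. Of the 73, 4 were higher and 3 lower, against 2.49% and 4.69% of all tested genes. Scaling to a common SD gave a median of 0.58, with 21 higher and 1 lower, against 509 and 1759 of 13311 genes. Quantile normalization gave 0.51, with 19 higher and 2 lower, against 606 and 1423. As deposited, complex I had a median of 0.76, complex II 0.22, complex III 0.73, complex IV 1.25 and ATP synthase 0.95. The count of 26 was 7 without pool 1, 6 without pool 4 and 9 without pool 12. Uqcrfs1, the iron-sulfur subunit of complex III, was at 4.06, 4.86, 4.23 and 3.74 against 5.61, 5.55, 4.91 and 5.88, so that the lowest obese-father pool was just above the highest lean-parent pool. The difference was 1.27 (SE 0.37, adjusted p = 0.316), or 0.65 with the array SD. Ndufs3 of complex I, Cox7a2 of complex IV and Uqcr10 of complex III differed by 1.31, 1.38 and 0.90.

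**Figure D5:**
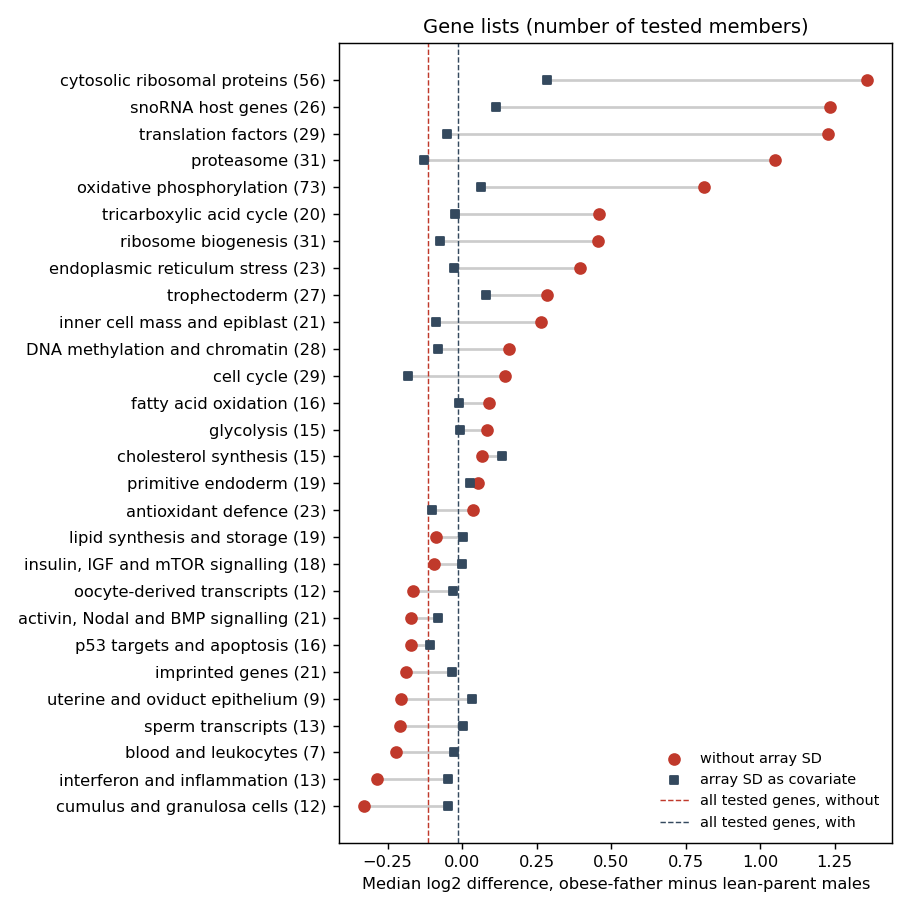
Median log2 difference, obese-father minus lean-parent males (horizontal axis), of the tested members of 28 gene lists (vertical axis, number of genes in brackets), without (red circles) and with (dark squares) the array SD as covariate; dashed lines are the medians of all tested genes. Ribosomal protein genes lie at 1.36 and 0.29, and with the covariate the lists lie between -0.18 and 0.29.

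Fuel use showed smaller medians. The median was 0.46 for the tricarboxylic acid cycle, and that of fatty acid oxidation was 0.09, of glycolysis 0.08, of cholesterol synthesis 0.07 and of lipid synthesis and storage -0.09. The covariate made these -0.02, -0.01, -0.01, 0.13 and 0.00. That of cholesterol synthesis turned to -0.03 after scaling to a common SD, and to -0.06 without pool 2, -0.0027 without pool 11 and -0.05 without pool 12. Without pool 12 that of glycolysis turned to -0.04, and that of the tricarboxylic acid cycle was 0.25. Ldhb, a lactate dehydrogenase subunit, was lower without overlap, at 2.79, 2.62, 2.47 and 2.61 against 2.08, 1.99, 1.73 and 2.16. Its difference was -0.63 (SE 0.16, adjusted p = 0.316), and -0.49 with the array SD. A second set of Ldhb gave -0.02. Slc16a1, a lactate and pyruvate carrier, and Slc2a3, a glucose carrier, differed by 0.65 and 0.95. Acadm, which starts the oxidation of medium-chain fatty acids, differed by 1.65 without overlap and by 0.39 with the array SD, and Etfa, which takes up its electrons, by 1.79 and 0.50. Among genes of fat synthesis, Elovl6, an elongase, differed by 1.51, Fads1, a desaturase, by -0.51 and Srebf1, a regulator of the pathway, by -0.35. The insulin, IGF and mTOR list had a median of -0.10, with none of 18 higher and 2 lower at an unadjusted p under 0.05, a share near the 10.4% over all tested genes. The 2 were 1 without pool 1, 4, 9 or 10, and 0 after median centring or quantile normalization. With the array SD 0 were higher and 4 lower, against 2.49% and 4.69% of all tested genes.

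Stress and defence genes had small medians. Endoplasmic reticulum stress genes had a median of 0.39, antioxidant genes 0.04 and p53 targets -0.17, and at equal array SD they had -0.03, -0.10 and -0.11. Without pool 12 the endoplasmic reticulum stress median was 0.08 and the antioxidant median turned to -0.03. The antioxidant list held 6 genes that were higher and 3 that were lower at an unadjusted p under 0.05, against 4.3% and 10.4% of all tested genes, and without pool 1 or 4 those counts were 2 and 3. At equal array SD the balance was the opposite, with 0 higher and 7 lower, against 2.49% and 4.69%. Sod1, a superoxide dismutase, was at 6.69, 7.16, 7.30 and 6.72 in lean-parent and 8.56, 8.12, 8.04 and 9.14 in obese-father pools. Its difference of 1.50 (SE 0.51, adjusted p = 0.316) was 0.68 with the array SD, and it was -0.97 in females. Mt2, a metallothionein, differed by 1.44 without overlap. Cat, the catalase gene, was lower without overlap, by -0.42. Hsp90b1, a chaperone of the endoplasmic reticulum, differed by 1.93 with overlap, and the apoptosis genes Bid and Bak1 by -0.47 and -0.49. The interferon and inflammation list had a median of -0.28 (-0.05 at equal SD). Of its 13 genes 3 were lower at an unadjusted p under 0.05 (1 without pool 1 or 12), against 10.4% of all tested genes. At equal SD 1 was lower, against 4.69%. Irf9, a factor of that list that carries interferon signals, differed by -0.28 as deposited.

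Lineage genes of the blastocyst did not share one direction. The trophectoderm list had a median of 0.28 over 27 genes, with 8 higher at an unadjusted p under 0.05 and 4 free of overlap, against 4.3% and 1.91% of all tested genes. The 8 were 5 without pool 1 or pool 12. At equal array SD the median was 0.08, with 5 higher and 1 lower, against 2.49% and 4.69% of all tested genes. Its median without pool 3 or pool 9 was 0.47 and 0.46. Fewer cells of a lineage and less RNA per cell cannot be told apart in such pools. Its higher members Tspan8, Psap, Lcp1, an actin-bundling protein (1.70 without overlap), and Cldn4, a tight junction protein (0.81), were not lineage factors. Of the lineage factors only Cdx2 is described here. Cdx2, the factor that sets trophectoderm fate, was at 4.05, 4.68, 4.61 and 4.05 against 4.05, 4.73, 4.53 and 5.77, a difference of 0.42 (SE 0.41) and of -0.31 with the array SD. The keratin genes Krt8 and Krt18 differed by 0.27 and 1.16 as deposited, and by -0.74 and 0.10 with the array SD. Krt8 was also negative after quantile normalization and after scaling to a common SD.

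The inner cell mass and epiblast list had a median of 0.27 (-0.09 at equal SD, -0.02 after quantile normalization and 0.14 without pool 12). Pou5f1 was at 5.28, 6.14, 5.95 and 2.65 in lean-parent and 6.36, 6.70, 5.61 and 8.29 in obese-father pools. Its groups overlapped, and its difference of 1.73 (SE 0.73, adjusted p = 0.316) was 0.49 with the array SD. Dppa5a and Dppa3, markers of early pluripotency, differed by 1.87 and 1.72 with overlap, and Nanog by 0.30 (-0.13 at equal SD). A second set of Dppa3 gave 0.14. Esrrb, another pluripotency factor, was lower without overlap, by -0.45. The primitive endoderm list had a median of 0.05, which was below 0 after quantile normalization, after scaling to a common SD and without pool 1, 3, 4 or 12. Sox7, of that list, was at 4.28, 3.71, 3.84 and 3.94 against 3.47, 3.26, 3.44 and 3.33. It did not overlap, and its difference of -0.57 (SE 0.16, adjusted p = 0.316) was -0.37 with the array SD, while Gata6 differed by 0.17 (-0.20). Cdx2, Krt8, Krt18, Nanog and Gata6 were named after their values were seen. Other markers of these lineages, among them Eomes, Gata3, Sox2 and Gata4, are not described here.

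Several other lists lay a little below 0 as deposited and near 0 at equal array SD. Imprinted genes had a median of -0.19, the activin, Nodal and BMP list -0.17 and oocyte-derived transcripts -0.16. The covariate made these -0.04, -0.08 and -0.03. Inhba, which encodes the activin A chain, was at 3.04, 2.91, 3.19 and 3.35 against 2.33, 2.82, 2.53 and 2.24, lower in every obese-father pool (-0.64, SE 0.16, adjusted p = 0.316). Furin, which cleaves such ligands, differed by -0.34, the imprinted genes Kcnq1 and Peg12 by -0.43 and -0.37 without overlap, and the oocyte genes Kpna7 and Zp3 by -0.62 and -0.36. Khdc3, an oocyte gene, differed by 0.86, and by -0.23 at equal SD. Hox genes, which pattern the later embryo, were below 0 in 32 of 33 cases with a median of -0.23, and had -0.01 at equal SD. Olfactory receptor genes, with 276 tested, had -0.19 and 0.03. The chromatin and cell cycle lists had 0.16 and 0.14, and -0.08 and -0.18 at equal SD.

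Markers of other cells that could be carried over were also lower as deposited. The cumulus and granulosa list had a median of -0.33 over 12 genes. At an unadjusted p under 0.05, 0 were higher and 5 lower, against 4.3% and 10.4% of all tested genes. The 5 were 2 without pool 1, 4, 9 or 12. At equal SD 1 was lower, against 4.69% of all tested genes. Amh differed by -0.53 (SE 0.19, adjusted p = 0.316). The mean level of the list was 2.94 to 3.33 in lean-parent and 2.68 to 2.95 in obese-father pools. The sperm, blood and uterine and oviduct lists had medians of -0.21, -0.22 and -0.20 over 13, 7 and 9 genes. Their mean levels were 2.93 to 3.35, 2.63 to 3.01 and 2.96 to 3.14 in lean-parent pools, and 2.72 to 3.09, 2.39 to 2.75 and 2.74 to 2.94 in obese-father pools. The 4 medians lay between -0.05 and 0.03 at equal array SD. Of their members, Odf1 and Smcp of sperm differed by -0.46 and -0.37, Cd3e of T cells by -0.29 and Foxj1 of ciliated cells by -0.36. Their part in other results was not tested.

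The effect of the father in male embryos was set against that in female embryos through the difference of both effects. As deposited, limma called 0 genes for that difference (smallest adjusted p = 0.654), with 1003 (7.54%) at an unadjusted p under 0.05, of which 247 were more positive in males and 756 more negative. At equal array SD 2 genes were called (0.015%), Glod4 with -2.0 (SE 0.28, adjusted p = 0.00505) and Mapk1ip1l, named here by its call, with -1.69 (SE 0.27, adjusted p = 0.0199). Both were high in obese-father female pool 22, at 4.67 and 6.03. Without that array neither was called, with -1.88 (adjusted p = 0.233) and -1.27 (adjusted p = 0.615). Mapk1ip1l was also missed without pool 1, 2 or 9 (adjusted p = 0.0582, 0.0869 and 0.0538). In females alone 0 genes were called in either fit, with 378 (2.84%) and 945 (7.1%) at an unadjusted p under 0.05 without and with the array SD.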

How the data were processed

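Per the submitters' processing notes, the authors used RMA and affy to make the deposited log2 signals, 1 per probe set and array, from Affymetrix GeneChip arrays. Versions and build: not given in the sources used here. RNA was amplified from lysates, per the labels' protocols. The table held 35556 probe sets with 0 missing values. GEO's platform annotation gave 1 gene symbol to 21789 sets, several to 1621 and none to 12146. Gene numbers of 21698 sets were found in RefSeq (GRCm38.p6). For 999 genes with several sets, the set of highest mean was used. Genes above the table's median on 4 or more arrays entered the tests, 13311 of 19938.

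Groups came from the labels. limma 3.58.1 in R 4.3.3 (lmFit, eBayes) fitted 6 group means to all 24 arrays, without and with each array's SD as covariate, with Benjamini-Hochberg adjustment over all tested genes. The number of arrays limits the precision. The procedure was tested on simulated data. Members and lists were chosen with earlier results of these data known. Named genes are every called gene, the 12 higher and 12 lower with the largest difference at an unadjusted p under 0.05 without overlap, the 10 higher and 10 lower with the smallest p at equal array SD, and up to 4 per list with the smallest p. Names without information were left out. One gene that the rule names is not reported here. Alternatives were other filters, probe set rules, array weights, a residual component, rescalings, fits of fewer groups, a threshold of 0.10 and leaving out arrays. Leaving out pool 22, or pools 12 and 22, was added after seeing the data.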

Additional observations from a re-analysis of the deposited data

Results flagged for a closer look

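In each group of 4 male pools, the array SD, the list means and the named genes were checked for a pool far from the others, by Dixon's rule on the gap to its neighbour relative to the group's range. Of 272 checks 19 met this, and chance alone gives about 1 in 20. Pool 12 of the obese-father males stood out in array SD (1.72), in the mean of fatty acid oxidation genes (3.99) and in Rbm25 (8.76), Anp32a (9.06), Ppig (4.43), Cct5 (6.80), Rpl7a (8.56), Rps10 (8.93), Rps7 (9.55), Polr1e (2.24) and Nanog (5.53). Other obese-father pools stood out in Srebf1 (pool 9, 2.88), Fads1 (pool 10, 2.45) and Snord8 (pool 11, 2.40). Among lean-parent males, pool 3 stood out in Snord33 (6.95), Pcnp (7.33) and Ubqln5 (2.42), pool 4 in Kcnj14 (6.13) and pool 2 in Esrrb (2.62). The male and female effects differed at equal array SD in Glod4 (-2.0) and Mapk1ip1l (-1.69), by limma's test of the difference, which both missed without pool 22.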

How the results depend on the processing

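Of the genes called as deposited (1), the count was 0 with the 2 groups alone, 0 with the male groups alone, 0 with a stricter filter that leaves Snord47 out, 2 with array weights and 2 with the array SD, and 0 to 2 when single arrays were left out. With the first residual component as a covariate 1901 genes were called, and 350 for the difference between the sexes, against 0 as deposited and 2 with the array SD. That component has mean 0 in each group, so it leaves the differences as they are and narrows their errors. It was taken from the residuals of these same values, so more calls were built in, and they are not counted as results. Of the 2 genes called at equal array SD, the count was 0 with the 2 groups alone, the male groups alone, the stricter filter and without pools 12 and 22, 1 with array weights, 4 at a threshold of 0.10, and 0 to 3 without single arrays. The stricter filter leaves both Snord47 and Glod4 out. The 1958 genes at an unadjusted p under 0.05 became 956 with the array SD and 4102 with the residual component, and 836 to 2921 without single arrays. Signs turned with the array SD in Cct5 (-0.73), Khdc3 (-0.23), Mapk1ip1l (-0.59), Cdx2 (-0.31), Krt8 (-0.74), Nanog (-0.13) and Gata6 (-0.20). They turned with quantile normalization or a common SD in Mettl23 (-0.39 and -0.10), Krt8 (-0.53 and -0.26) and, for a common SD, Cavin3 (-0.056). Median centring turned Ppig (0.054), and leaving out pools 12 and 22 turned Krt8 (-0.11). Without single arrays, Cavin3 lay between -0.050 and 0.14, Ociad1 between -0.59 and 0.45, Ppig between -0.21 and 0.13 and Krt8 between -0.11 and 0.67. The cause was not tested. No paired analysis was possible because the groups compared share no replicate number in the labels.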

Other observations

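Of 7806 probe sets that passed the filter but have no single gene symbol in the annotation, 0 were called in limma without the array SD. At an unadjusted p under 0.05 there were 1553 (19.9%), and the smallest adjusted p was 0.112.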
